A study of Sus scrofa with 6 samples.

Results

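The genes described here are TAP1, TAPBP, SLA-2, SLA-3 and B2M, which load peptides onto class I molecules of the pig major histocompatibility complex (the swine leukocyte antigen, SLA) or form those molecules. They were taken by name, as all non-control probe sets whose platform annotation gives exactly 1 of these symbols. That rule found 15 of the 23999 non-control probe sets of the array, for 5 of 6765 singly named genes, with 3 probe sets for TAP1, 9 for B2M and 1 for each of the other genes. Of the 15, 12 passed a filter on low signal, set at the 40th percentile of the mean log2 signal, which corresponds to a signal of 48.5.

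The samples were aortic valve leaflets of adult female pigs, with the endothelium removed by collagenase, cultured in serum-containing medium and held in a pressure bioreactor. The hypertensive group (3 arrays) had a cyclic pressure of 0 to 120 mmHg and the normotensive group (3 arrays) one of 0 to 80 mmHg, both at 1 Hz for 24 h. The comparison asks how raised diastolic pressure across the valve changes expression in the leaflet. The labels call the samples biological replicates but do not name the animals, so what the p-values rest on is the spread among these arrays, which may be technical.

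Class I molecules show peptides made inside the cell to CD8 T cells and to natural killer cells. Peptides are cut by the proteasome, pumped into the endoplasmic reticulum by the transporter TAP, a dimer of TAP1 and TAP2, and placed on the heavy chain with the help of tapasin (TAPBP). The heavy chain, here SLA-2 or SLA-3, pairs with the light chain B2M (beta-2-microglobulin) before it leaves for the cell surface. Interferons are known to induce most of these genes, and stromal cells as well as leukocytes express them.

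The arrays had been scaled to a common level, with trimmed means between 499.8 and 499.9. The mean correlation with normotensive arrays was 0.817, 0.950 and 0.895 for hypertensive replicates 1, 2 and 3, and 0.958 to 0.971 between normotensive arrays, so the hypertensive arrays were spread out and replicate 2 lay nearest to the normotensive group. Interstitial cell markers ran from bright to low: vimentin (VIM) was at 18606 to 26412 on hypertensive and 22536 to 24275 on normotensive arrays, the collagen COL1A2 at 211 to 426 on hypertensive and 187 to 583 on normotensive arrays, and S100A4 did not pass the filter. COL1A1 is not named by the annotation. By limma 0 of 14399 kept probe sets passed an adjusted p of 0.05 (0% higher and 0% lower), while 1064 were higher and 1372 lower at an unadjusted p under 0.05. Without hypertensive replicate 2, 10.4% of kept probe sets passed higher and 14% lower, and with array weights, which lean on arrays near their group's mean, 16.9% passed higher and 22.3% lower; calls made in those settings are read against these shares. No gene described here passed with all arrays, and differences below are differences in measured signal with their standard errors.

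Signal of all 5 genes was on average higher under hypertensive than under normotensive pressure, by brightest probe set, and the size ran from 9.76-fold for the transporter subunit TAP1 to 1.29-fold for the light chain B2M, whose log2 difference turned to -0.13 with its probe sets averaged. Tapasin came second at 3.44-fold, followed by the heavy chains SLA-2 at 2.68-fold and SLA-3 at 1.99-fold. All hypertensive arrays lay above all normotensive arrays for TAP1, TAPBP and SLA-3, and the groups overlapped for SLA-2 and B2M. Of all kept probe sets, 10.4% had groups that did not overlap with the hypertensive arrays higher.

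**Figure D1:**
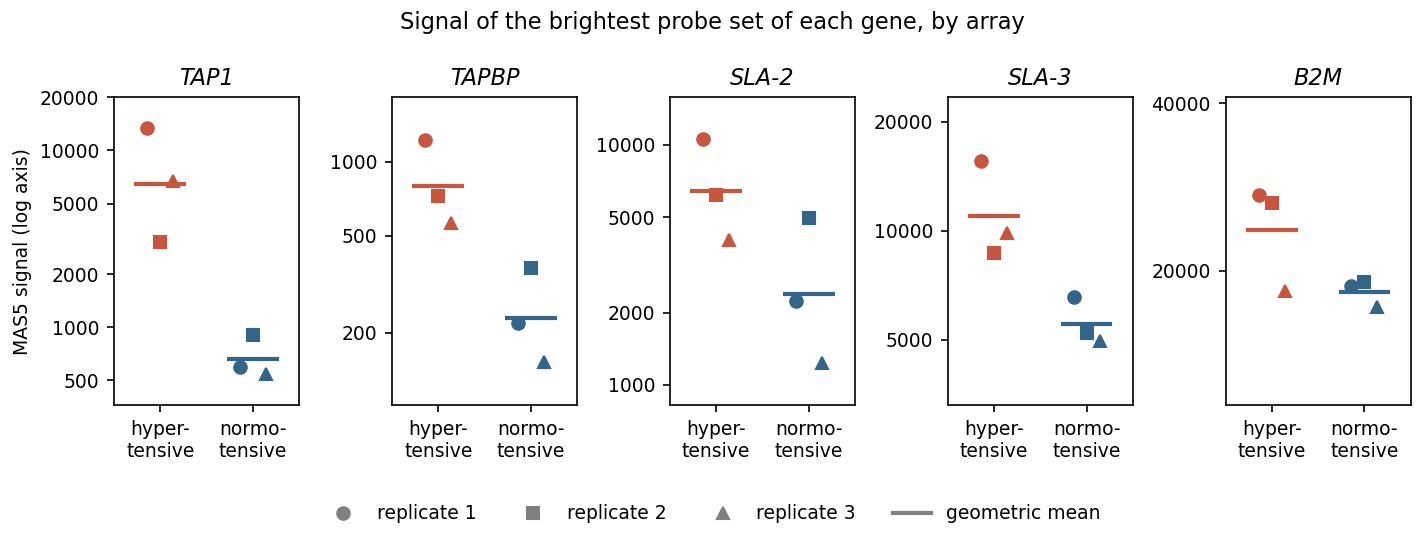
MAS5 signal of the brightest probe set of each gene on a log axis with its own range, for 3 hypertensive (left) and 3 normotensive (right) arrays; symbols mark the replicate and bars the geometric mean. The TAP1 hypertensive arrays sit between 3021 and 13349 and the normotensive ones between 544 and 904, while for B2M hypertensive replicate 3 lies inside the normotensive range.

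TAP1, the subunit that with TAP2 moves peptides from the cytosol into the endoplasmic reticulum, had signals of 13349, 3021 and 6723 on hypertensive replicates 1, 2 and 3, against 592, 904 and 544 on normotensive replicates 1, 2 and 3. The lowest hypertensive array was thus over 3 times the highest normotensive array. The log2 difference was 3.29 (SE 0.50, n = 3 each; limma, unadjusted p = 0.000163, adjusted p = 0.131). It ranked 19 by size of log2 difference and 15 by p among the 14399 kept probe sets. The fold was 6.80 without hypertensive replicate 1 and 14.3 without hypertensive replicate 2, where the gene passed, as 10.4% of kept probe sets did in the same direction (adjusted p = 0.00172, and 7.28e-05 to 0.581 over the alternatives run).

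Against the normotensive mean, TAP1 was at 20.1, 4.56 and 10.1 times on hypertensive replicates 1, 2 and 3. The other TAP1 probe sets, Ssc.23546.1.S1_at and Ssc.23546.2.A1_at, did not pass the filter. The first was at 4.80 to 9.56 on hypertensive and 3.68 to 6.56 on normotensive arrays, below the filter level throughout. The second was at 12.2 to 58.5 on hypertensive and 6.15 to 55.7 on normotensive arrays, with overlapping groups. The TAP1 result therefore rests on 1 probe set, Ssc.27863.1.S1_at.

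TAPBP encodes tapasin, the chaperone that bridges TAP and the empty class I molecule and favours the exchange of weak for strong peptides. Its signals were 1226, 729 and 561 on the hypertensive replicates, against 219, 368 and 152 on the normotensive ones. The groups were separate, with normotensive replicate 2 the nearest to the hypertensive arrays. The log2 difference was 1.78 (SE 0.42, n = 3 each; limma, adjusted p = 0.231), with a 95% interval of 1.75-fold to 6.77-fold. Without hypertensive replicate 2 it was among the 10.4% of kept probe sets that passed higher (adjusted p = 0.0262, and 0.0035 to 0.581 over the alternatives run), at a log2 difference of 1.85. Its unadjusted p in that setting was 0.00405, against 0.00280 with all arrays (limma), so only the adjusted p fell. With any other single array left out it did not pass.

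SLA-3 is a classical class I heavy chain that carries peptide to the cell surface. It had signals of 15576, 8680.0 and 9847 on the hypertensive replicates, against 6541, 5205 and 4951 on the normotensive ones. The groups did not overlap, and the log2 difference was 0.99 (SE 0.25, n = 3 each; limma, adjusted p = 0.235). It too was among the 10.4% that passed higher without hypertensive replicate 2, at 1.16 (adjusted p = 0.0128, and 0.0065 to 0.581 over the alternatives run).

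SLA-2, another classical heavy chain, had signals of 10542, 6205 and 4001 on the hypertensive replicates and 2235, 4949 and 1235 on the normotensive ones. Normotensive replicate 2 lay above hypertensive replicate 3, so the groups overlapped. The log2 difference was 1.42 (SE 0.52, n = 3 each; limma, unadjusted p = 0.0261, adjusted p = 0.273), and it was 1.95 without normotensive replicate 2 and 0.94 without normotensive replicate 3. Class I heavy chains are near-identical in sequence, and the SLA-2 probe set is of the kind that Affymetrix marks as sharing probes with other sequences, so neither SLA-2 nor SLA-3 can be taken as the signal of that gene alone.

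Neighbouring heavy chain probe sets bear on the same point. RefSeq's Sscrofa11.1 annotation places LOC100513601, for which it lists SLA-1 as a synonym, on one side of SLA-2 and SLA-3 on the other. Its probe set had signals of 11322, 10518 and 8259 on the hypertensive replicates and 1627, 8746 and 1202 on the normotensive ones. As with SLA-2, normotensive replicate 2 stood far above the other normotensive arrays and overlapped the hypertensive group. The log2 difference was 1.95 (SE 0.65, n = 3 each; limma, adjusted p = 0.265).

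The nonclassical heavy chains had smaller estimated differences, though that of SLA-7 was close to the 0.99 of SLA-3. The contrast with the classical heavy chains was not tested. SLA-6, SLA-7 and SLA-8 had log2 differences of 0.15, 0.85 and 0.37, and the groups overlapped for each. SLA-7 was at 1341, 648 and 567 on the hypertensive arrays, against 360, 644 and 362 on the normotensive arrays, where replicate 2 was again the highest. FCGRT, a class I-like receptor that recycles IgG and also pairs with B2M, was at -0.13 (SE 0.35). Of these 4 genes 0 had an unadjusted p under 0.05, where 7.39% of all kept probe sets were higher and 9.53% lower at that p.

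B2M, the light chain of every class I molecule, was among the brightest probe sets on the array, with 0.104% of kept probe sets brighter. Ssc.12348.1.S1_at had signals of 27316, 26416 and 18388 on the hypertensive replicates and 18749.9, 19078 and 17235 on the normotensive ones. Hypertensive replicate 3 lay inside the normotensive range. The log2 difference was 0.37 (SE 0.17, n = 3 each; limma, unadjusted p = 0.0616, adjusted p = 0.311), and its 95% interval ran from 0.984-fold to 1.69-fold. A difference of the size seen for TAP1 or TAPBP lay outside that interval, which is of this probe set alone. The interval of the dimmer B2M probe set Ssc.7768.1.A1_at, 0.615-fold to 4.32-fold, held the 3.44-fold of TAPBP.

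The 8 kept B2M probe sets did not move one way. For 5 of them the mean was higher and for 3 lower under hypertensive pressure; 47.3% of all kept probe sets had a higher mean. Ssc.12348.2.S1_at was higher without overlap, at 20330.2, 15316 and 17033 on hypertensive arrays and 12908, 14105 and 13524 on normotensive arrays, a log2 difference of 0.37 (SE 0.15). The third bright probe set, Ssc.5896.1.S1_at, had a log2 difference of 0.08 (SE 0.15), which turned to -0.08 with quantile normalization.

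Lower without overlap were Ssc.12809.5.A1_at and Ssc.12809.4.S1_a_at, which 12% of kept probe sets also were. The first was at 1082, 2868 and 2245 on the hypertensive arrays and 4931, 2985 and 4885 on the normotensive arrays, with a log2 difference of -1.12 (SE 0.39; limma, adjusted p = 0.269). The second was at 407, 852 and 906 on the hypertensive arrays and 1004, 1707 and 1135 on the normotensive arrays, at -0.88 (SE 0.38). Without hypertensive replicate 2 the first passed, at -1.42 (limma, adjusted p = 0.0277, and 0.00399 to 0.581 over the alternatives run), where 14% of kept probe sets passed lower. In that setting Ssc.12348.2.S1_at passed higher, at 0.46 (adjusted p = 0.0441, and 0.0107 to 0.594 over the alternatives run), and so did Ssc.7768.1.A1_at, at 1.45 (adjusted p = 0.0197, and up to 0.934 over the alternatives run). On both lower probe sets, hypertensive replicate 1, the array with the highest TAP1 signal, was the lowest.

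Of the other kept B2M probe sets, Ssc.17269.1.S1_at was at -0.90 (SE 0.54), Ssc.7768.1.A1_at at 0.70 (SE 0.61) and Ssc.19916.2.S1_a_at at 0.35 (SE 0.32), each with overlapping groups. The fold of Ssc.17269.1.S1_at was 0.535, and 0.838 without hypertensive replicate 1; that of Ssc.7768.1.A1_at was 1.63, and 2.74 without hypertensive replicate 2. Ssc.8925.1.S1_at did not pass the filter. RefSeq annotates 2 B2M genes next to each other in the pig, and which transcripts the dimmer probe sets detect is not given in the sources used here. With all kept probe sets averaged, B2M had a log2 difference of -0.13, so the direction for this gene depends on the probe set.

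**Figure D2:**
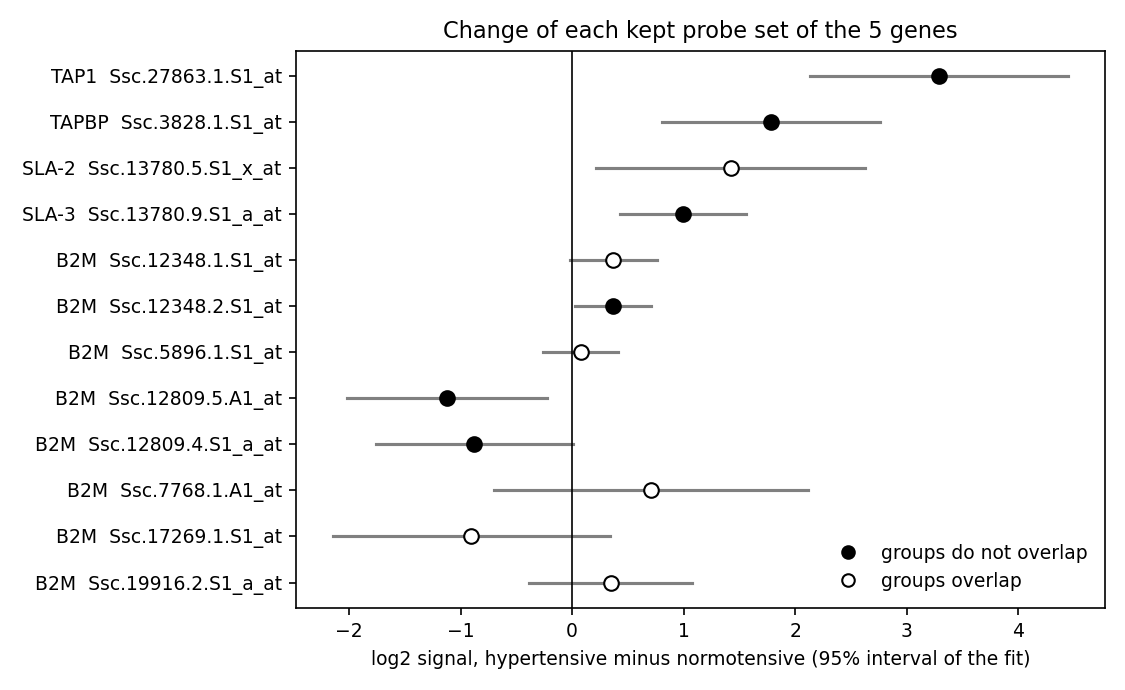
Log2 difference, hypertensive minus normotensive, of the 12 kept probe sets with the 95% interval of the fit; filled points mark groups that do not overlap. TAP1 lies at 3.29 and TAPBP at 1.78, while the B2M probe sets lie on both sides of 0, from -1.12 to 0.70.

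**Figure D3:**
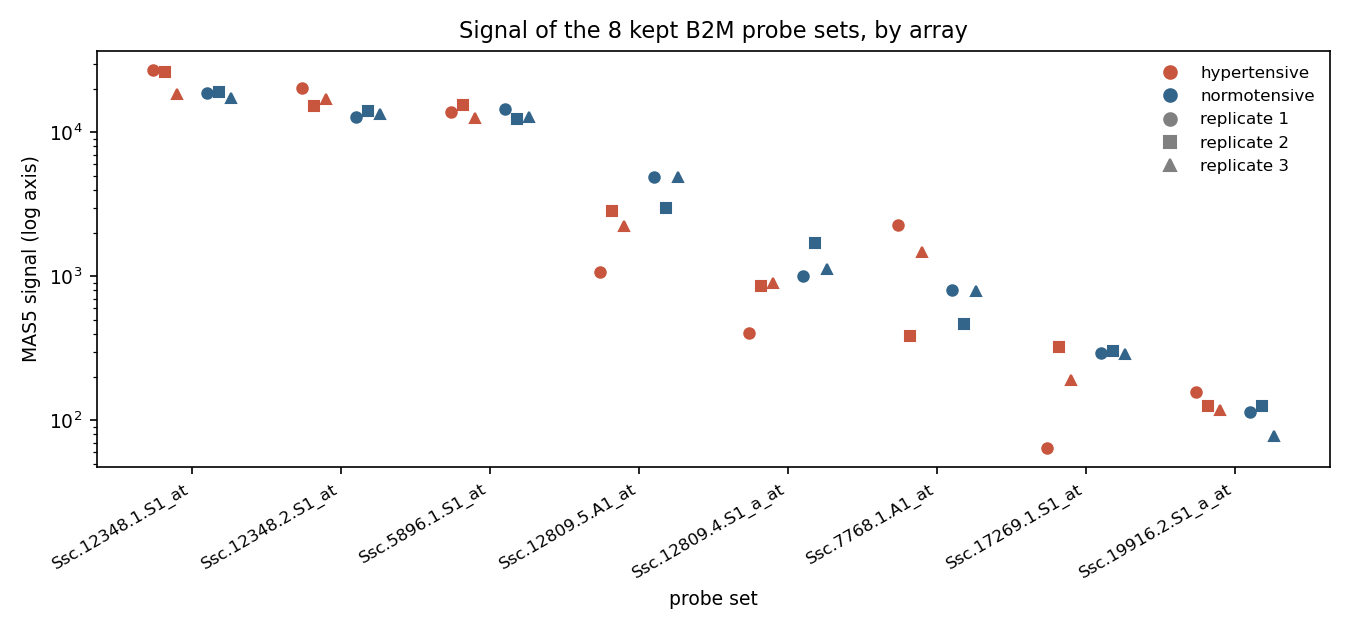
MAS5 signal of the 8 kept B2M probe sets on a log axis, hypertensive arrays left of normotensive arrays in each pair of columns. The 3 brightest sit close together in both groups, and Ssc.12809.5.A1_at and Ssc.12809.4.S1_a_at have all hypertensive arrays below all normotensive ones.

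Whether 1 gene moved further than another was tested on the difference of log2 signals within each array, by an exact 2-sided permutation test over the 6 arrays for the 10 pairs of genes. The smallest p this test allows with 3 arrays against 3 is 0.1, so by it no pair could pass 0.05. The log2 change of TAP1 exceeded that of B2M by 2.92, of SLA-3 by 2.29, of SLA-2 by 1.87 and of TAPBP by 1.50. In each of these pairs the log ratio on all hypertensive arrays lay above that on all normotensive arrays (exact permutation p = 0.1, adjusted p = 0.2 over the pairs). TAPBP exceeded B2M by 1.42, with the same separation and the same p. The other 5 pairs overlapped, with differences from 0.36 for TAPBP against SLA-2 to 1.05 for SLA-2 against B2M and exact permutation p between 0.2 and 0.6.

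The 5 genes also varied within each group. Hypertensive replicate 1 was the highest of its group in 5 of 5 genes, where it was the highest in 31.9% of kept probe sets. Normotensive replicate 2 was the highest of its group in 4 of 5, against 39% of kept probe sets, and normotensive replicate 3 the lowest in 5 of 5, against 38.8%. For the GAPDH control probe sets, the 3′ over 5′ ratio, read as a sign of RNA integrity, was 3.67, 2.91 and 6.04 on hypertensive replicates 1, 2 and 3 and 3.02, 2.11 and 7.52 on the normotensive ones. It was thus lowest on replicate 2 and highest on replicate 3 in both groups. A further pair of GAPDH probe sets gave the same order in the hypertensive group (8.58, 6.02 and 19.4) and in the normotensive group (14.2, 4.56 and 24.8), while for a last pair hypertensive replicate 1 was the lowest of its group. The part of this ratio in the order of the signals was not tested. Across the 6 arrays the log2 signal of TAP1 had a Pearson correlation of 0.946 with SLA-3, 0.926 with TAPBP, 0.800 with SLA-2 and 0.673 with B2M; the arrays and the group difference are shared by all of them.

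Genes of the whole array with a pattern most like TAP1 over the 6 arrays were ACSL1, which activates long-chain fatty acids (r = 0.997), RPIA, an enzyme of the pentose phosphate pathway (r = 0.992), C1H15orf48 (r = 0.991) and IST1 (r = 0.990), out of 5270 genes. Their folds were 13.0, 1.36, 5.75 and 1.33, so a like order of arrays went with very different sizes. For TAPBP they were the monocyte chemokine CCL2 (r = 0.996), IMP3, NCK2 and PDGFRL, at 5.46, 1.78, 2.12 and 2.30 times. For B2M they were CD40, a receptor of the tumour necrosis factor family (r = 0.993), polyubiquitin UBB, OGFOD1 and the ubiquitin-conjugating enzyme UBE2Q1, at 1.49, 1.25, 1.56 and 1.25 times.

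Around these genes, 42 of 51 other pathway genes on the array passed the filter. By limma 0 passed the adjusted threshold. At an unadjusted p under 0.05, 7 of 42 were higher and 0 lower, where 7.39% of all kept probe sets were higher and 9.53% lower. The groups did not overlap in 8 that were higher and 1 that was lower, where 10.4% of all kept probe sets were higher and 12% lower in this way. The median log2 difference was 0.19, beside -0.04 over all kept probe sets. The 42 are genes, each by its brightest kept probe set. Over all 5271 genes taken in that way, 361 were higher and 536 lower at an unadjusted p under 0.05. Without overlap 489 of them were higher and 664 lower, and their median log2 difference was -0.07. A higher mean was seen in 47.3% of all kept probe sets. Counts for each step and for cell markers below are read against these shares. The count of 7 was 4 without normotensive replicate 1 and 3 without normotensive replicate 3.

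**Figure D4:**
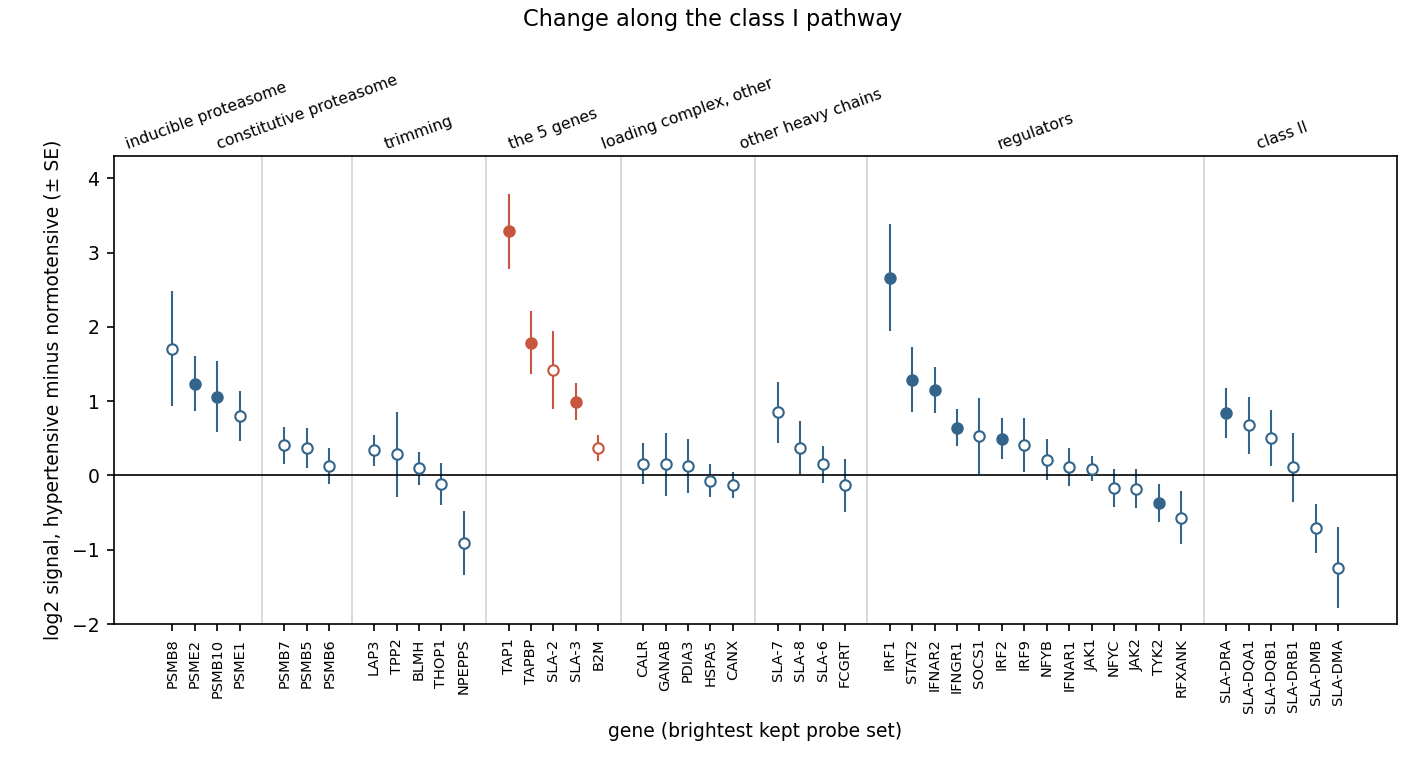
Log2 difference, hypertensive minus normotensive, with its SE for the brightest kept probe set of each gene, ordered by step of the class I pathway; filled points mark groups that do not overlap. TAP1 at 3.29 and the transcription factor IRF1 at 2.66 stand highest. CALR, CANX, PDIA3, HSPA5 and GANAB, general chaperones and enzymes of the endoplasmic reticulum, lie within 0.16 of 0.

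Interferons exchange catalytic subunits of the proteasome for PSMB8, PSMB9 and PSMB10, and add the activator PSME1 and PSME2. All 4 measured genes of this supply step had higher means, with a median log2 difference of 1.15. Of these, 2 were at an unadjusted p under 0.05 and 2 without overlap. Among all kept probe sets, 47.3% had higher means, 7.39% were higher at that p and 10.4% were higher without overlap. PSME2 was at 5746, 2439.7 and 2594 on the hypertensive arrays, against 1395, 1749 and 1139.8 on the normotensive ones, a log2 difference of 1.24 (SE 0.37). PSME1 was at 0.80 (SE 0.34), with overlapping groups.

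PSMB10 was at 1566, 441 and 630.0 on the hypertensive arrays, against 432, 403 and 274 on the normotensive arrays, so that hypertensive replicate 2 was barely above the highest normotensive array. PSMB8, which RefSeq places beside TAP1, was at 905, 201 and 404 on the hypertensive arrays and 83.3, 411 and 61.6 on the normotensive ones. Its normotensive replicate 2 lay above hypertensive replicates 2 and 3, the same array that was high for SLA-2. PSMB8 had a log2 difference of 1.71 (SE 0.78; unadjusted p = 0.0588). PSMB9, on the other side of TAP1, and TAP2, next to PSMB8, are not named by the annotation. The standard catalytic subunits that these replace had log2 differences of 0.37 (PSMB5), 0.13 (PSMB6) and 0.40 (PSMB7), each with overlapping groups.

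Of 8 listed peptidases that trim peptides 5 were measured, 3 of them higher and 0 at an unadjusted p under 0.05. ERAP1, ERAP2 and LNPEP, also on that list, have no probe set with 1 gene symbol and were not measured. LAP3, a cytosolic leucine aminopeptidase, was at 0.34 (SE 0.21). NPEPPS, the puromycin-sensitive aminopeptidase, was at -0.91 (SE 0.43), with signals of 2044, 5971 and 1727 on the hypertensive arrays and 5443, 5314 and 4801 on the normotensive arrays. On NPEPPS hypertensive replicate 2 was the highest of all arrays. BLMH, TPP2 and THOP1 were at 0.09, 0.28 and -0.11.

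The general chaperones and enzymes of the endoplasmic reticulum, which serve many other proteins too, had log2 differences within 0.16 of 0. CALR and CANX, the lectin chaperones calreticulin and calnexin, were at 0.16 (SE 0.27) and -0.13 (SE 0.18). PDIA3, the disulfide isomerase that pairs with tapasin, was at 0.12 (SE 0.36), HSPA5 at -0.07 (SE 0.22) and GANAB at 0.15 (SE 0.42). All 5 had overlapping groups. The widest 95% interval of fold among these 5 was that of GANAB, 0.569 to 2.16, followed by that of PDIA3, 0.611 to 1.94. Further kept probe sets of CANX and PDIA3 did not all share the sign of the brightest.

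Among regulators of class I genes and interferon signalling, 10 of 14 were higher, 4 at an unadjusted p under 0.05. Of all kept probe sets, 47.3% had a higher mean and 7.39% were higher at that p. IRF1, a transcription factor that binds interferon-responsive promoters, was at 5788, 602 and 1305 on the hypertensive arrays, against 287, 284 and 220 on the normotensive ones. All hypertensive arrays were higher, with replicate 1 far above the rest, and the log2 difference was 2.66 (SE 0.72; limma, unadjusted p = 0.00560). STAT2 was at 1.29 (SE 0.44), and the receptor chains IFNAR2 and IFNGR1 were at 1.15 (SE 0.31) and 0.64 (SE 0.25), each without overlap. IRF2 was at 0.49 and its groups did not overlap either, where 10.4% of all kept probe sets were higher in this way. The kinase TYK2, at -0.37, was lower without overlap, and RFXANK, which acts at class I and class II promoters, was at -0.57 with overlap.

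Signal for the interferons themselves was low. IFNG and IFNB1 did not pass the filter, with IFNG at 2.69 to 46.1 on the hypertensive and 1.03 to 30.7 on the normotensive arrays, and IFNB1 at 1.22 to 31.1 on the hypertensive and 1.19 to 15.4 on the normotensive arrays. IFNA1 was at 77.9 to 90.5 on the hypertensive arrays and 76.3 to 112 on the normotensive ones. The groups overlapped for each of the 3.

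Class II genes, which present peptides from outside the cell and which interferon gamma also induces, had 4 of 6 higher and 1 at an unadjusted p under 0.05. SLA-DRA was at 711, 677 and 825.0 on the hypertensive arrays, against 364, 634 and 299 on the normotensive arrays, at a log2 difference of 0.84 (SE 0.34). SLA-DQA1, SLA-DQB1 and SLA-DRB1 were at 0.67, 0.50 and 0.11. SLA-DMA and SLA-DMB, which load peptide onto class II molecules, were at -1.24 (SE 0.55) and -0.71 (SE 0.33), with overlapping groups. The invariant chain CD74 and the class II activator CIITA did not pass the filter.

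Markers of cells that could carry class I and class II genes were read beside these values. Of 15 leukocyte markers on the array 8 passed the filter, 3 with higher and 5 with lower means, and their summed signal ran from 917 to 3253 on hypertensive and 2147 to 4019 on normotensive arrays. PTPRC was at 36.9, 52.6 and 15.3 on the hypertensive arrays and 55.8, 127 and 66.0 on the normotensive arrays, CD14 at 51.0 to 115 on hypertensive and 26.4 to 61.5 on normotensive arrays, and CD3E was below the filter on all arrays. Of 13 endothelial markers 7 passed, 2 higher and 5 lower, with sums of 2174 to 4032 (hypertensive) and 2660 to 3221 (normotensive). PECAM1 was at 425 to 915 on hypertensive and 409 to 1396 on normotensive arrays. CDH5, which did not pass the filter on its mean, was at 68.4 to 115 on hypertensive and 12.3 to 40.5 on normotensive arrays, and VWF was below the filter on all arrays.

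A further 3 endothelial markers, chosen after their values were seen, had groups that did not overlap. SELP, the adhesion molecule P-selectin, was at 2296, 784 and 368 on the hypertensive replicates and 95.4, 245 and 90.6 on the normotensive ones, a log2 difference of 2.76 (SE 0.67; limma, unadjusted p = 0.00321, adjusted p = 0.235). As for TAPBP and SLA-2, hypertensive replicate 1 was the highest of all arrays and normotensive replicate 2 the highest of its group. SELE, E-selectin, was at 443, 64.6 and 29.3 on the hypertensive replicates and 1.11, 4.50 and 1.62 on the normotensive ones, and did not pass the filter. ERG, an endothelial transcription factor, had lower signal, with 899, 1019 and 973 on the hypertensive replicates and 1675, 1142 and 1780 on the normotensive ones, a log2 difference of -0.64 (SE 0.27; limma, unadjusted p = 0.0425, adjusted p = 0.288).

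Of 11 interstitial markers 10 passed, and all 10 had lower means under hypertensive pressure, where 47.3% of all kept probe sets had a higher mean. Their sums were 57439 to 71903 on hypertensive and 86894 to 88746 on normotensive arrays. Lower without overlap, as 12% of kept probe sets were, were 3 of them. MGP was at a log2 difference of -1.03 (SE 0.26), LUM at -0.86 (SE 0.27) and POSTN at -0.53 (SE 0.18). In whole leaflets, more cells of a type and more RNA per cell cannot be told apart, and the part of cell makeup in the class I differences was not tested.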

How the data were processed

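GCOS and MAS5 are the tools named in the submitters' processing notes, without versions. What the authors deposited is a linear signal intensity for each probe set on each array; the number of arrays limits the precision, and detection calls were not used here. Per the labels, 70 ng of total RNA was amplified in repeated rounds and 10 µg of cRNA hybridised. Of 24123 probe sets 124 were controls and left out; of the rest 10069 had 1 gene symbol, 198 several and 13732 none. Symbols come from the platform annotation, updated by Entrez ID through RefSeq (9961 matched).

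Signals were taken to log2 with no pseudocount or further normalization, filtered, and fitted with limma 3.58.1 in R 4.3.3 (2-sided; lmFit, then eBayes with trend), with p-values adjusted by Benjamini-Hochberg over all 14399 kept probe sets. A gene is given by its brightest kept probe set, and folds are 2 to the power of the log2 difference. The fit was tested on simulated data. The genes, lists and naming rule (every probe set of the 5 genes, up to 6 genes of smallest p per list, further fixed genes, and the 4 most correlated genes) were chosen with earlier results of these data known. LOC100513601, TYK2, SELP, SELE, ERG, COL1A2, S100A4, MGP, LUM, POSTN and probe sets with several class I symbols were added after their values were seen. The labels give no shared source for a replicate number, and deviations of same-numbered arrays correlated at 0.06, 0.07 and 0.23, not all above the 0.1 set for pairing, so the fit has no block; whether the numbers mark a shared batch is not known. Alternatives were pseudocounts, normalizations, filters, variance models, array weights, the replicate number as a block, each array left out and the mean of a gene's probe sets.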

Additional observations from a re-analysis of the deposited data

Results flagged for a closer look

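A probe set that the annotation gives to both SLA-2 and SLA-3, Ssc.13780.4.S1_x_at, entered no comparison of a single gene, yet all its hypertensive arrays lay above all normotensive arrays. Its signals were 10737, 5146 and 4287 on the hypertensive replicates and 1375, 4064 and 882 on the normotensive ones. The fold was 3.64, with a log2 difference of 1.86 (SE 0.57; limma, adjusted p = 0.256).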

How the results depend on the processing

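Direction held for TAP1, TAPBP, SLA-2 and SLA-3 under all 16 alternatives run for each. By leaving out 1 array at a time, log2 differences ran from 2.77 to 3.84 for TAP1, 1.47 to 2.12 for TAPBP, 0.94 to 1.95 for SLA-2, 0.74 to 1.16 for SLA-3 and 0.27 to 0.55 for B2M; numbers of probe sets passing ran from 0 to 1500 higher and 0 to 2013 lower, with the top of each range without hypertensive replicate 2 and 1 higher without normotensive replicate 2. Pathway genes ran from 3 to 10 higher and 0 to 3 lower at an unadjusted p under 0.05, and from 0 to 6 higher and 0 to 3 lower past the adjusted threshold. With array weights, which lean on arrays near their group's mean, 2431 probe sets were higher and 3208 lower; TAP1 (3.48), TAPBP (1.49), SLA-2 (1.02) and SLA-3 (0.73) passed, as did B2M Ssc.12348.2.S1_at (0.39) and Ssc.7768.1.A1_at (0.89) higher, B2M Ssc.12809.5.A1_at (-1.14) and Ssc.17269.1.S1_at (-0.74) lower, and 11 higher and 4 lower pathway genes, with 14 and 4 at an unadjusted p under 0.05. The brightest B2M probe set, Ssc.12348.1.S1_at, was at 0.20 with quantile normalization, 0.08 with array weights and 0.43 with a common median, and passed in none of these. B2M Ssc.12348.2.S1_at was at 0.20 with quantile normalization. B2M Ssc.5896.1.S1_at turned to -0.082 with quantile normalization and -0.12 with array weights, and B2M averaged over its probe sets to -0.13. Lower pathway genes at an unadjusted p under 0.05 numbered 1 with a pseudocount of 64, a common median, no filter or averaged probe sets. With the replicate number as a block they numbered 2, and 0 probe sets passed. Deviations of every array correlated best with those of its own number, at 0.06, 0.07 and 0.23. Hypertensive replicate 2 also had 0.04 with normotensive replicate 1. By replicate number, the GAPDH ratio had the same order in both groups for all pairs given above but the last. With the block, unadjusted p was 0.00571 for SLA-2, 0.00117 for SLA-3, 0.00162 for TAPBP and 0.000241 for TAP1 (limma). Without the block these were 0.0261, 0.00364, 0.00280 and 0.000163. Whether the numbers mark a shared batch was not tested. The cause of these shifts was not tested. Low signal limits TAP1 to 1 probe set.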

Other observations

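Across the 6 arrays the log2 signals of B2M probe sets ran both with and against each other. Ssc.12348.2.S1_at had a Pearson correlation of 0.969 with TAP1 and of -0.974 with Ssc.12809.5.A1_at, although all of these B2M probe sets carry the same gene symbol. Ssc.5896.1.S1_at, which was about as bright, had a correlation of 0.034 with Ssc.12348.2.S1_at. Probe sets annotated to several class I heavy chains varied too: Ssc.13780.10.S1_x_at was at 7334, 4006 and 3574 on the hypertensive replicates and 620.2, 3790.0 and 404 on the normotensive ones, with normotensive replicate 2 inside the hypertensive range.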
